A study of Mus musculus with 6 samples.

Results

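A set of 10 genes of messenger RNA decapping and of the steps around it was followed in the livers of mice given 9/13-HODEs, an equal mixture of the linoleic acid products 9-HODE and 13-HODE. The members are the RNA helicase gene Ddx6, its partner Lsm14a, the decapping enzyme gene Dcp2, its activators Dcp1a, Dcp1b, Edc3 and Edc4, the exonuclease gene Xrn1 and the deadenylase genes Pan2 and Pan3. They were taken by gene name, each name matched 1 gene model, and the 10 members stand among 55401 gene models in the table. All 10 were among the 14741 genes tested. The set was chosen with the values of treated and Ctrl livers already known. The comparison between them is therefore a description for the members, and no conclusion is drawn from their p-values.

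The treated mice were C57BL/6 males, 8 weeks old at the start, injected intraperitoneally once a day for 9 days with the 2 HODEs at a combined 0.5 μg/g body weight, and their livers made 3 libraries. The Ctrl mice were of the same strain, sex and age, were injected with the solvent of polyethylene glycol and water, and also gave 3 libraries, each from 1 mouse. Poly(A) RNA was sequenced, and for every gene model the authors deposited a count and its FPKM, the count scaled to the length of the model and to the depth of the library.

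Most cytoplasmic mRNAs are degraded from the capped end after the poly(A) tail has been shortened. PAN2 and PAN3 begin to trim the tail, the CCR4-NOT complex removes most of the rest, DDX6 joins that complex to the decapping machinery, DCP2 cuts off the cap, and XRN1 digests the uncapped body. Many of these proteins gather with stored mRNAs in cytoplasmic granules called processing bodies, for which DDX6 and LSM14A are needed in human cells.

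The promoters of the cofactor genes Edc3 and Edc4 are shown because both hold the same motif near the start of transcription, while the mean level in treated livers was lower than in Ctrl livers for Edc3 and higher, with overlapping groups, for Edc4. RefSeq windows (GRCm38.p6) of 300 bases, from 250 before to 50 after the start of transcription, matched 8 of the 10 members, and Ddx6 and Dcp2 had no entry. Capitals mark CGGAAGT, the core that ETS transcription factors bind together with flanking bases, sought on both strands and chosen after the windows were read. It begins at position -36 relative to the start in Edc3 (chr9:57708319-57708618, plus strand) and 8 bases after the start in Edc4 (chr8:105880631-105880930, plus strand).
Edc3: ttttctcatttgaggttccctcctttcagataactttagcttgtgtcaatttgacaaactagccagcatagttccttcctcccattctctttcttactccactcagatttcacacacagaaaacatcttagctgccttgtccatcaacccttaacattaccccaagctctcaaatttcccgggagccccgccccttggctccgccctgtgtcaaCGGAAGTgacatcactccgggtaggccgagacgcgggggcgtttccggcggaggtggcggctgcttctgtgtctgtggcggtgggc
Edc4: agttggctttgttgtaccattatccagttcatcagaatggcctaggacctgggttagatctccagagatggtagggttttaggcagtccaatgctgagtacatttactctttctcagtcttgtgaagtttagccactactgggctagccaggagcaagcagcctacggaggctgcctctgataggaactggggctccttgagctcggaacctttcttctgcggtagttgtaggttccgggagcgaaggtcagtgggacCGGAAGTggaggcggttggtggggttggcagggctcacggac
The motif was in 3 of the 8 member windows, those of Edc3, Edc4 and Dcp1a, and in 6.42% of all 32851 windows. This is a description of the letters, not of binding. Because the motif was chosen after these windows were read, no conclusion is drawn from its share among the members.

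Ddx6, which encodes the DEAD-box ATPase that links deadenylation and translational repression to decapping, was lower in every treated liver than in every Ctrl liver. Its FPKM was 0.921, 0.753 and 0.651 in the treated livers and 5.19, 5.39 and 1.42 in the Ctrl livers. The treated livers lay close together, whereas Ctrl replicate 3 was far below the other 2 Ctrl livers and nearest to the treated livers. The mean was 0.775 ± 0.136 in treated livers and 3.998 ± 2.235 in Ctrl livers (SD, n = 3 each), so that the treated mean was 19.4% of the Ctrl mean, with a log2 fold change of -2.33 (standard error 0.51, edgeR). Against the Ctrl livers one by one, the treated mean was 6.70-fold lower than Ctrl replicate 1, 6.95-fold lower than Ctrl replicate 2 and 1.83-fold lower than Ctrl replicate 3. Without Ctrl replicate 3 the log2 fold change was -2.74.

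The size of the Ddx6 difference thus rested on which Ctrl livers it was set against. Among the 3763 tested genes within a factor of 2 of the mean FPKM of Ddx6, its spread in treated livers was near the median (SD of log2(FPKM + 0.1) 0.22, median of those genes 0.22), while its spread in Ctrl livers was above that of 95.5% of them (SD 1.05, median 0.21). Low values of this kind were counted in each Ctrl liver. Of 8253 genes at a mean FPKM of 1 or more, 88 lay at least 1 log2 unit below both other Ctrl livers in Ctrl replicate 3, where these others were within 0.5 of each other, and the same held for 81 genes in Ctrl replicate 1 and 133 in Ctrl replicate 2.

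The counts behind these values were 581, 509 and 457 in the treated livers and 3379, 3386 and 936 in the Ctrl livers. Ddx6 lies on chromosome 9 from 44604892 to 44640731 on the plus strand, as the authors' table gives it, with the same start and end as in the GENCODE M21 annotation of GRCm38. The 3 gene models that overlap it held at most 4 counts in any library. The nearest model above it with a mean count of at least 10, BC049987, on the other strand and 29722 bases away, had 698, 534 and 695 counts in treated livers and 720, 442 and 338 in Ctrl livers, and its groups overlapped.

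**Figure D1:**
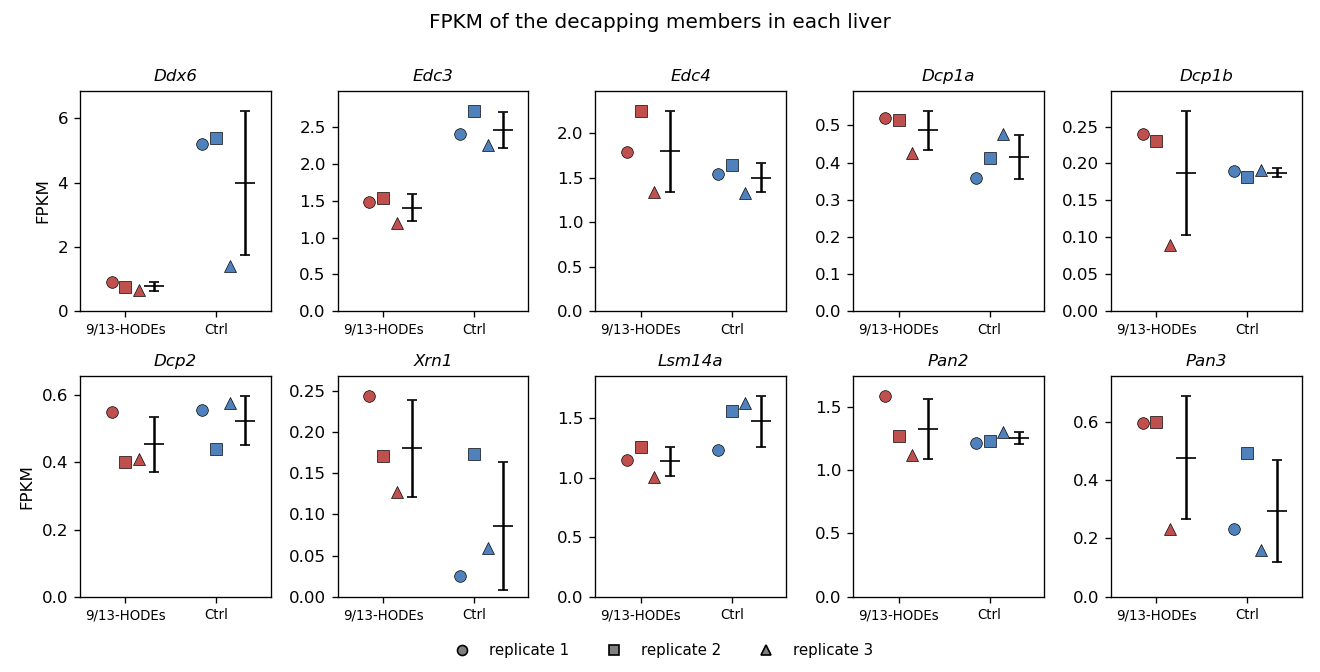
FPKM (vertical axis, starting at 0 with its own scale for each gene) of the 10 members in 9/13-HODEs-treated livers (red, left) and Ctrl livers (blue, right). Each symbol is 1 liver, and the bar beside them is the mean with the SD (n = 3). The groups are apart for Ddx6 and Edc3 and overlap for the other 8, and Ctrl replicate 3 of Ddx6, at 1.42, lies near the treated livers.

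Lsm14a encodes a partner of DDX6 in processing bodies and in translational repression. Its FPKM was 1.15, 1.26 and 1.01 in the treated livers and 1.23, 1.56 and 1.63 in the Ctrl livers. Ctrl replicate 1 was level with the treated livers, and the groups overlapped (log2 fold change -0.31, standard error 0.16). Unlike that of Ddx6, its level in Ctrl replicate 3 was the highest of the 6 livers.

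Edc3, an activator of decapping that binds DDX6, was the other member whose groups did not overlap. It had an FPKM of 1.48, 1.54 and 1.20 in the treated livers and 2.40, 2.73 and 2.26 in the Ctrl livers. All 3 Ctrl livers were alike, so the difference did not hang on 1 of them, and the mean was 1.41 ± 0.181 in treated livers and 2.46 ± 0.241 in Ctrl livers (SD, n = 3 each). This is 57.3% of the Ctrl mean (log2 fold change -0.75, standard error 0.15), and leaving out any 1 liver gave log2 fold changes between -0.83 and -0.63. Edc3 (chromosome 9 from 57708540 to 57752499, plus strand) shares 1876 bases at its far end with Clk3 on the opposite strand. Clk3, a kinase gene, had 1363, 1434 and 1478 counts in treated livers and 1413, 1426 and 1843 in Ctrl livers, and whether reads were assigned by strand is not given in the sources used here.

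Edc4, the scaffold that holds the decapping enzyme and its activators together in animals, had an FPKM of 1.79, 2.25 and 1.34 in the treated livers and 1.54, 1.64 and 1.33 in the Ctrl livers. Replicates 1 and 2 of the treated livers were above all Ctrl livers, and replicate 3 lay among the Ctrl livers, so that the groups overlapped (log2 fold change 0.31, standard error 0.20).

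Dcp2 encodes the Nudix hydrolase that removes the cap. It had an FPKM of 0.549, 0.402 and 0.409 in the treated livers and 0.555, 0.441 and 0.576 in the Ctrl livers. These values interleaved (log2 fold change -0.14, standard error 0.20). Dcp1a, an activator of DCP2, had 0.519, 0.515 and 0.426 FPKM in the treated livers and 0.357, 0.412 and 0.476 FPKM in the Ctrl livers. Only Ctrl replicate 3 reached into the treated range (log2 fold change 0.29, standard error 0.18). Its paralogue Dcp1b had 0.240, 0.231 and 0.0899 FPKM in the treated livers and 0.190, 0.181 and 0.192 FPKM in the Ctrl livers. Here the Ctrl livers were nearly equal and replicate 3 of the treated livers was under them (log2 fold change 0.05, standard error 0.37, of either sign under the settings tried).

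Xrn1, the exonuclease that digests decapped RNA, had the lowest mean FPKM of the members in both groups, close to that of Dcp1b in the treated livers, at 0.244, 0.172 and 0.127 in the treated livers and 0.0252, 0.174 and 0.0589 in the Ctrl livers. Ctrl replicate 2 stood within the treated range and the other 2 Ctrl livers below it. The counts were 356, 269 and 206 in treated livers and 39, 254 and 92 in Ctrl livers (log2 fold change 1.09 with a standard error of 0.68, and between 0.66 without Ctrl replicate 1 and 2.17 without Ctrl replicate 2).

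Pan2 encodes the catalytic subunit of the deadenylase that starts to shorten the tail, and its FPKM was 1.59, 1.27 and 1.12 in the treated livers and 1.21, 1.23 and 1.31 in the Ctrl livers. The Ctrl values fell inside the treated range (log2 fold change 0.15, standard error 0.15, and -0.01 on the TPM scale, where the median gene stood at -0.14). Pan3 encodes the subunit that ties PAN2 to the poly(A)-binding protein, and it had 0.597, 0.599 and 0.233 FPKM in the treated livers and 0.233, 0.492 and 0.159 FPKM in the Ctrl livers. Replicate 3 of the treated livers and Ctrl replicate 1 were equal at 3 digits (log2 fold change 0.71, standard error 0.52, and between 0.40 and 1.34 without 1 liver).

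Xrn1 and Pan3, whose FPKM varied in the Ctrl livers by a coefficient of variation of 90.6% and 59.4% (Ddx6, 55.9%), are also the members with the longest models. The lengths implied by count and FPKM were above those of 97.7% of genes for Xrn1 and 96.6% for Pan3. Over the 1324 tested genes with an implied length of at least 10000 bases, the median deviation from each gene's mean was 0.15 in Ctrl replicate 3 and 0.01 in Ctrl replicate 1 on the log2 scale, the 2 livers in which Xrn1 and Pan3 were lowest among the Ctrl livers. Over the shorter genes it was 0.10 in Ctrl replicate 3 and 0.04 in Ctrl replicate 1. In Ctrl replicate 2 it was -0.03 over the longer and -0.01 over the shorter genes. In the treated livers it was 0.03, 0.07 and -0.15 over the longer genes and -0.002, 0.04 and -0.10 over the shorter ones. Replicate 3 was the treated liver in which Xrn1 and Pan3 were lowest. The part of gene length in the levels of the members was not tested. For all members and libraries the implied length was 1.09 to 1.14 times the summed exon length in GENCODE M21.

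**Figure D2:**
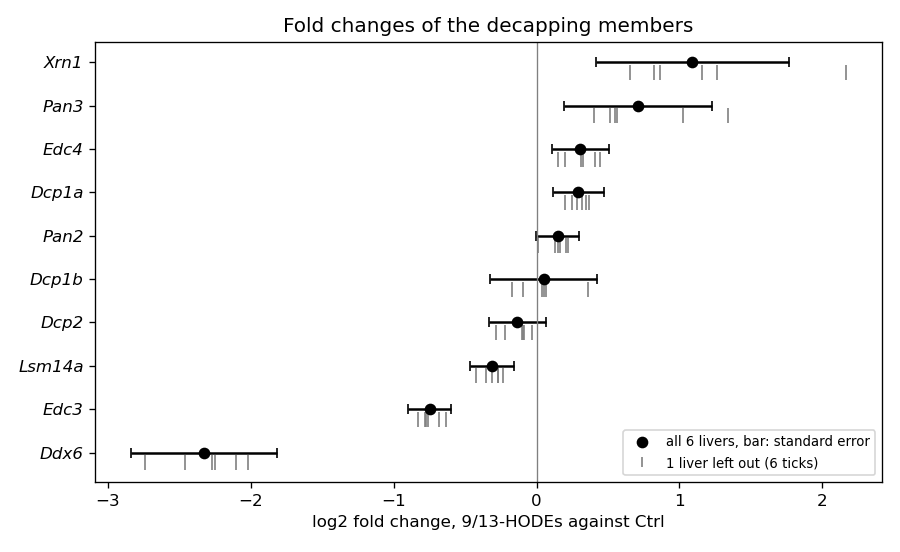
Log2 fold change of 9/13-HODEs-treated against Ctrl livers (horizontal axis) for the 10 members. The point is the estimate by edgeR from all 6 livers with its standard error, and the 6 grey ticks under it are the estimates with 1 liver left out. Ddx6 stayed between -2.74 and -2.02 and Edc3 between -0.83 and -0.63, while the ticks of Xrn1 reached 2.17 and those of Dcp1b lay on both sides of 0.

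Of the 10 members, the log2 fold change was below 0 for 4 and above 0 for 6 (median 0.10, against 0.00 over all 14741 genes tested). None (0 of 10) passed an adjusted p of 0.05 by edgeR's quasi-likelihood test over all genes, which 0.0204% of genes did. By unadjusted p under 0.05, 2 members were lower, Ddx6 and Edc3, and 0 higher, beside 3.61% of all genes lower and 4.08% higher (7.69% in all). The same 2 members passed an adjusted p of 0.05 by DESeq2 (0.604% of all genes). By edgeR Ddx6 passed only without Ctrl replicate 3, the Ctrl liver nearest to the treated ones, where 16 of the 14741 genes passed. The groups did not overlap, with the treated livers lower, in 2 members, and with the treated livers higher in 0, beside 9.82% and 5.28% of all genes (15.1% in all). Since the comparison had a part in the choice of the members, nothing is read from these counts.

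In the treated livers Edc4 had the highest level per length of the 10 members, followed by Edc3, Pan2 and Lsm14a, whose ranges overlapped from 1 neighbour to the next. Ddx6 came next there, below the range of Lsm14a and above that of Dcp1a. In the Ctrl livers Ddx6 ranked first by its mean, though its range overlapped that of Edc3, which came next, because of Ctrl replicate 3. Edc3 lay above the range of Edc4, and Edc4, Lsm14a and Pan2 overlapped in turn. Dcp2, Dcp1a and Pan3 followed with overlapping ranges in the Ctrl livers, and Dcp1b and Xrn1 were the lowest in both groups.

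Ddx6 made up 10.1%, 8.36% and 9.85% of the summed FPKM of the 10 members in the treated livers and 40.1%, 37.8% and 15.1% in the Ctrl livers. Without Ddx6 the sum was 8.16, 8.25 and 5.96 FPKM in the treated livers and 7.75, 8.87 and 7.98 FPKM in the Ctrl livers. The groups overlapped in this sum, and replicate 3 of the treated livers was the lowest of the 6. The factor by which edgeR scales a library beyond its depth (TMM) was also lowest in that liver (0.927) and highest in Ctrl replicate 3 (1.07). FPKM holds no such factor, and its part in the sums was not tested.

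**Figure D3:**
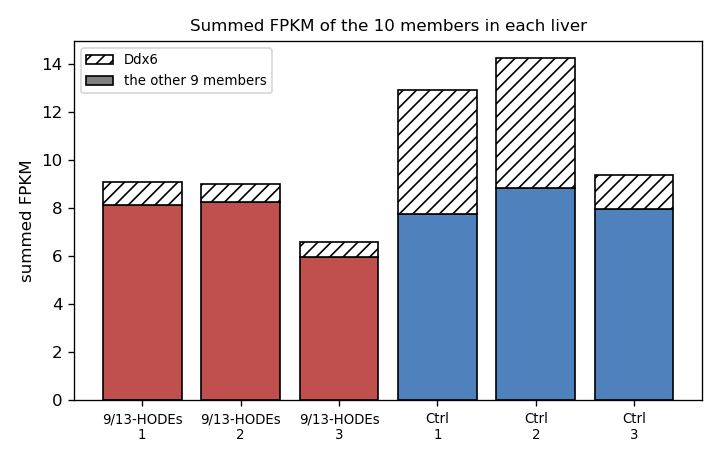
Summed FPKM (vertical axis) of the 10 members in each liver, with Ddx6 hatched and the other 9 in solid colour (red, 9/13-HODEs, and blue, Ctrl). The solid parts lie between 5.96 and 8.87 in both groups, and the hatched part is large in Ctrl replicates 1 and 2.

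The wider machinery of mRNA decay was followed in 8 lists with 145 genes, of which 144 were tested. The granule protein gene Tia1 had a lower FPKM than the test required. The lists were chosen by function, apart from the 32 other DEAD-box helicases. These were taken by protein family, whether or not they act in mRNA decay. By edgeR, 0 of the 144 were called after adjustment at 0.05. Before adjustment 7 were under 0.05 (4.86%, beside 7.69% of all genes), with 4 of them higher and 3 lower. DESeq2 called 1, Lsm14b, which was lower. The median log2 fold change was -0.03 over the 144 genes and 0.00 over all genes. In 18 of them the groups did not overlap (12.5%, beside 15.1% of all genes), with 16 lower (11.1%, beside 9.82%) and 2 higher (1.39%, beside 5.28%) in the treated livers.

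Among 17 other decapping and cap-scavenging factors, the log2 fold change was above 0 for 8 and below 0 for 9 (median -0.03). Lsm14b, the paralogue of Lsm14a, had an FPKM of 2.08, 1.78 and 1.76 in the treated livers and 6.45, 3.06 and 6.60 in the Ctrl livers. The groups did not overlap, and Ctrl replicate 2 was the Ctrl liver nearest to the treated ones. The log2 fold change was -1.44 with a standard error of 0.28 (edgeR's quasi-likelihood test, Benjamini-Hochberg adjusted p = 0.584), and over the alternatives the adjusted p lay between 0.000895, by DESeq2, and 0.825. Lsm3, a subunit of the LSM ring that binds shortened tails and of the ring of U6 RNA, had 3.06 ± 0.555 FPKM in treated livers and 2.08 ± 0.267 FPKM in Ctrl livers without overlap (log2 fold change 0.62, adjusted p = 0.649 by edgeR). Pnrc2, a decapping cofactor in human cells, had 6.28 ± 0.430 and 8.08 ± 1.52 FPKM in treated and Ctrl livers.

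Of 18 genes of CCR4-NOT and deadenylation, 0 had an unadjusted p under 0.05 (7.69% of all genes did), and the median log2 fold change was -0.03. Lists this short can hold 0 such genes at that share, and nothing is read from the counts of single lists. Cnot11 had a log2 fold change of -0.47, the CCR4-NOT subunit gene Cnot9 of -0.28 and Tob1, an adaptor of the complex, of -0.47 (-0.15 without Ctrl replicate 3). No gene passed the unadjusted threshold either among 12 genes of miRNA silencing (0, median 0.04), 18 of the RNA exosome and SKI complex (0, median -0.02), 14 of nonsense-mediated decay (0, median -0.05) and 15 for RNA-binding proteins that destabilise mRNAs (0, median -0.04). Among the genes of smallest p there were Dicer1, which encodes the enzyme that cuts miRNA precursors (log2 fold change 0.69), and Hbs1l of ribosome rescue (-0.41). Others named by the rule were Ago3 (0.36), Drosha (0.21), Exosc9 (-0.39), Wdr61 (-0.26), Smg1 (0.37), Magoh (0.23), Zfp36 (0.20) and Zc3h12a (-0.30).

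Of 19 genes of stress granules and cap-binding repressors 18 were tested, with a median log2 fold change of 0.00. By unadjusted p 1 was higher and 1 lower, beside 4.08% and 3.61% of all genes. Gigyf2, a translational repressor that works with the cap-binding protein 4EHP, had an FPKM of 0.202, 0.732 and 0.423 in the treated livers and 0.145, 0.160 and 0.210 in the Ctrl livers. Its groups overlapped through replicate 1 of the treated livers (log2 fold change 1.45 with a standard error of 0.44, at an adjusted p of 0.649 by edgeR). Atxn2, which encodes a granule protein that binds poly(A)-binding protein, had 1.20 ± 0.135 FPKM in treated livers and 1.73 ± 0.365 FPKM in Ctrl livers without overlap (log2 fold change -0.45, adjusted p = 0.649 by edgeR), and G3bp2 had a log2 fold change of -0.31.

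Of 32 other DEAD-box helicases, the family to which DDX6 belongs, the log2 fold change was above 0 for 13 and below 0 for 19 (median -0.06). By unadjusted p 2 were higher and 1 lower, beside 4.08% and 3.61% of all genes. Ddx55 had 0.486 ± 0.0274 FPKM in treated livers and 0.369 ± 0.0282 FPKM in Ctrl livers (log2 fold change 0.47). Ddx41 had 10.6 ± 0.845 and 9.37 ± 0.583 FPKM (log2 fold change 0.24) and Ddx27 had 1.91 ± 0.177 and 2.50 ± 0.284 FPKM (log2 fold change -0.33) in treated and Ctrl livers. These 3 were at an adjusted p of 0.649 by edgeR.

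**Figure D4:**
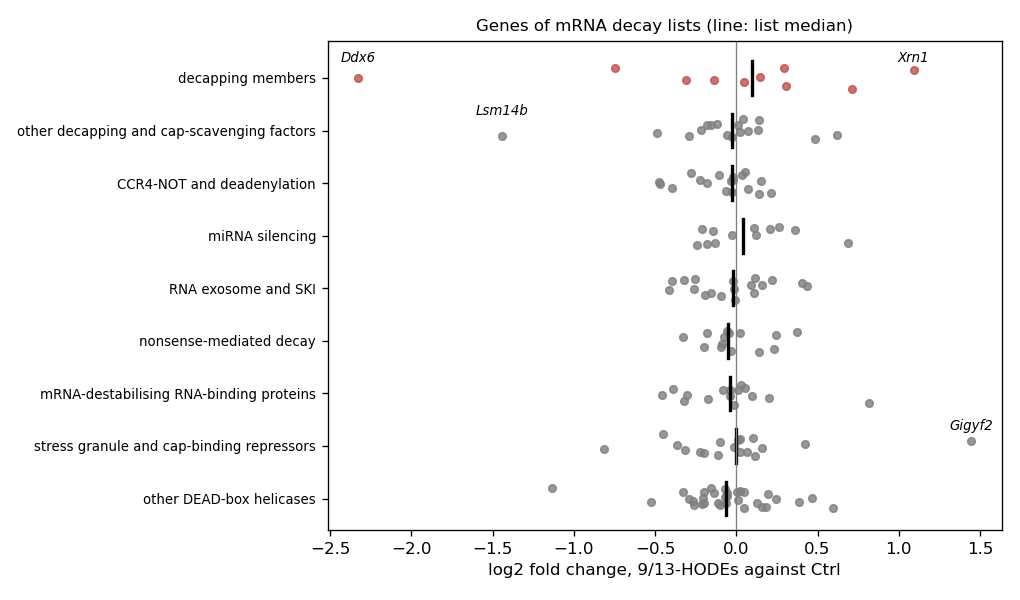
Log2 fold change of 9/13-HODEs-treated against Ctrl livers (horizontal axis) for the members (red) and for 8 other lists (grey). The lists are of mRNA decay, apart from the DEAD-box helicases, taken by protein family. Each point is 1 tested gene, its height within a row is arbitrary, and the black line is the median of the list. The medians lie between -0.06 and 0.10, and Ddx6 at -2.33, Lsm14b at -1.44 and Gigyf2 at 1.45 lie far from them.

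The genes whose profile was most like that of Ddx6 were taken by the Euclidean distance of log2(FPKM + 0.1), centred on each gene's mean, over the 6 libraries and among 8252 other genes at a mean FPKM of 1 or more (median distance 2.91). They were Obp2a (distance 1.06), Tor1aip2 (1.45), Gm14706 (1.45), Gm44805 (1.51) and Mup-ps22 (1.55). Obp2a had an FPKM of 1.34, 2.67 and 1.497 in the treated livers and 6.87, 9.11 and 2.96 in the Ctrl livers. That Ctrl replicate 3 was closest to the treated livers follows from the choice by likeness to Ddx6. Of the other members, Edc3 ranked 55 by this distance (2.06), Lsm14a ranked 1142 and Pan2 and Edc4 were farther than the median gene. The measure includes the difference between groups for which Ddx6 was chosen, and the low value of Ddx6 in Ctrl replicate 3.

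The libraries held between 70300597 and 78615288 counts. Hepatocyte markers were high in all of them (summed FPKM of 6 genes 59278 to 69803 in treated and 64239 to 69513 in Ctrl livers). Summed FPKM was 22.1 to 26.9 in treated and 20.5 to 25.5 in Ctrl livers for 6 Kupffer cell markers, 23.5 to 32.7 in treated and 23.3 to 28.7 in Ctrl livers for 6 endothelial markers, 18.1 to 21.9 in treated and 17.7 to 18.5 in Ctrl livers for 6 stellate cell markers, and 13.4 to 17.2 in treated and 12.8 to 19.3 in Ctrl livers for 5 cholangiocyte markers. It was 1.98 to 2.54 in treated and 1.03 to 2.26 in Ctrl livers for 6 lymphocyte markers, among which Cd3e and Ms4a1 were too low to be tested, and 121.8 to 174.0 in treated and 113.7 to 249.0 in Ctrl livers for 5 red cell markers. Of 5 adipocyte markers, with sums of 0.0550 to 1.32 in treated and 0.0005 to 0.130 in Ctrl livers, Adipoq, Lep, Plin1 and Cidea were too low to be tested. The highest sum was in replicate 1 of the treated livers, where Adipoq had 63 and Plin1 38 counts, with 0 counts of either in the other 5 livers. The fat cell hormone gene Retn had 61, 8 and 10 counts in the treated livers and 0, 0 and 0 in the Ctrl livers (adjusted p = 0.649 by edgeR and adjusted p = 0.0131 by DESeq2). Without replicate 1 of the treated livers the log2 fold change was -2.46 for Ddx6 and -0.78 for Edc3. The marker sums follow the highest genes of each list. Gene by gene, the log2 fold change was above 0 for 6 of 6 stellate cell markers (median 0.26). The same held for 5 of 6 endothelial markers (median 0.28), 4 of 6 hepatocyte, 4 of 6 Kupffer cell and 4 of 5 cholangiocyte markers. It held for 3 of 3 lymphocyte markers tested, while all 5 red cell markers were below 0 (median -0.25). Transcripts of the mitochondrial genome took 10.5% to 11.8% of counts in treated and 6.698% to 9.51% in Ctrl livers. The part of these differences in the levels of the members was not tested, and in whole liver fewer cells of a type and less RNA per cell cannot be told apart.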

How the data were processed

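Liver poly(A) RNA of 3 mice given 9/13-HODEs and of 3 Ctrl mice was sequenced. For each gene model the authors deposited whole-number counts, not scaled to depth. Whether reads of 1 molecule were merged by their UMI is not given in the sources used here. Beside them the authors gave FPKM, which divides the count by model length and library depth. The submitters' processing notes list StringTie 1.3.4d, HISAT2 2.0.4 and cutadapt 1.9 beside UMI-tools, edgeR and DESeq2, with no settings. The genome build and the use of strand in counting are not given in the sources used here, but 54891 of 55401 gene models start where they do in GENCODE M21 (GRCm38). Total counts lay between 70300597 and 78615288.

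Counts of the 14741 genes whose FPKM averaged 0.1 or more were compared with edgeR 4.0.16 (R 4.3.3, TMM, quasi-likelihood test, Benjamini-Hochberg adjustment over all of them, threshold 0.05). Differences are 9/13-HODEs against Ctrl. Alternatives were DESeq2 1.42.0, its size factors, limma-trend (limma 3.58.1) on log2(FPKM + 0.1), log2(FPKM + 1) and log2(TPM + 0.1), other filters, a replicate block and the omission of each library. The members and lists were chosen with earlier results of these data known. The text names all members, the models that overlap a member with a mean count of at least 10, the neighbours of Ddx6, the 3 genes of smallest p in each list, and the 5 genes most like Ddx6, apart from some that are not reported here. The motif and the promoters shown were chosen after the windows were read. The edgeR fit was tested on simulated data. It called 21% of the 2-fold and 80% of the 4-fold changes put in, with 4 false calls among 105. Most changes of 2-fold would thus be missed at the simulated spread. Of the neighbours, Cxcr5 was too low to be tested, as was Cacna1d, which overlaps Dcp1a on the opposite strand.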

Additional observations from a re-analysis of the deposited data

How the results depend on the processing

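The number of members past an adjusted p of 0.05 was 0 by edgeR and 0 under 7 other settings, 2 by DESeq2 (Ddx6 and Edc3), and 0 to 1 with 1 liver left out, the 1 being Ddx6 without Ctrl replicate 3. For the 144 genes of the wider lists it was 0, with 1 by DESeq2 (Lsm14b) and 0 to 0 with 1 liver left out. Over all genes edgeR called 3, DESeq2 89, edgeR with the replicate block 0, and 3 to 16 with 1 liver left out. With the replicate number as a block, 0 members and 0 genes of the wider lists were called. Same-numbered livers did not deviate together (r of 0.02, -0.01 and -0.01 across genes), so the block rests on the number alone.

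Of 135 estimates for members under other settings, 129 moved by less than 1 SD between livers and 7 changed sign, of which 6 were for Dcp1b and 1, after TPM scaling, for Pan2. The SD was each member's own (0.97 for Xrn1 and 0.14 for Dcp1a), so variable members could shift far and still count as unmoved. The log2 fold change of Ddx6 lay between -2.74 (without Ctrl replicate 3) and -1.37 (pseudocount of 1, which shrinks the fold changes of low genes), and that of Edc3 between -0.86 and -0.52. With a mean FPKM of at least 1 required, Dcp1a, Dcp1b, Dcp2, Xrn1 and Pan3 dropped out and gave no value. That of Xrn1 lay between 0.12 (pseudocount of 1) and 2.17 (without Ctrl replicate 2). The lowest counts of a member in 1 liver were 39 for Xrn1 and 51 for Dcp1b, and with 3 livers a group the precision is limited for all members.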

Other observations

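In several genes of the lists 1 Ctrl liver stood apart from the others while the treated livers were alike. In Elavl1 the FPKM was 2.42, 2.58 and 2.55 in the treated livers and 0.243, 3.13 and 2.51 in the Ctrl livers. Dicer1 and Tob1 are given as further examples. Dicer1, which encodes the enzyme that makes mature miRNAs, had an FPKM of 1.09, 1.09 and 0.888 in the treated livers and 1.18, 0.383 and 0.424 in the Ctrl livers, so that Ctrl replicate 1 was at the level of the treated livers. Its log2 fold change was 1.41 without that liver. Tob1, an adaptor of CCR4-NOT, had 11.5, 10.8 and 9.48 FPKM in the treated livers and 11.5, 12.6 and 22.6 FPKM in the Ctrl livers, with Ctrl replicate 3 alone high. Its log2 fold change was -0.47, and -0.15 without that liver. The Ctrl liver that stood apart differed between Dicer1 and Tob1. Neither (0 of 2) passed an adjusted p of 0.05 by edgeR with all livers or by DESeq2, and 0 had an unadjusted edgeR p under 0.05.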
